A study of Mus musculus with 4 samples.

Results

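A set of 989 open chromatin regions was selective for type 1 conventional dendritic cells (cDC1) among 142799 regions (peaks) called in sorted CD11c+ liver immune cells of mice before any disease-inducing diet (D0), which is 0.693% of them. The members were chosen by their D0 values. Group A held the nuclei with 3 or more UMIs (unique molecular identifiers, each 1 captured RNA molecule) of Xcr1, Clec9a, Tlr3, Rab7b and P3h2 together, and group B those with none. A peak was taken when it held 60 or more cut sites in A, and when its level in A was at least 3 times the level in B plus 0.5. Levels are in CPM, cut sites scaled so that all peaks of the group sum to 1000000. Of the 142799 peaks, 133642 reached 60 cut sites in A, and this minimum left out no peak that met the fold. Since A and B at D0 picked the members, every value of A or B at D0 is a description. Values that use them, such as the ratio of D5 to D0 in A, are descriptions too. The other comparisons of members with other peaks rest on the D5 library, on positions and on RNA.

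cDC1 are the dendritic cells that take up dying cells and present their antigens to CD8+ T cells, a function called cross-presentation, and they need the transcription factors IRF8 and BATF3 to develop. Open chromatin is measured by a transposase that cuts DNA where it is not packed, so a peak of cut sites marks a promoter, an enhancer or another accessible element. Elements that act in 1 cell type alone tend to lie away from promoters, which are often open in many cell types.

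The study fed C57BL/6J mice a diet that injures small bile ducts, chow with 0.1% DDC (3,5-Diethoxycarbonyl-1,4-Dihydrocollidine), for 0 days (D0) or 5 days (D5). Living liver cells with CD45 and CD11c but without CD64 were sorted, and their nuclei were read by 10x Multiome, which takes RNA and open chromatin from the same nucleus. Each day was 1 library, and neither pooling of mice nor their age is given in the labels. With 1 library a day no test between days or between groups of nuclei can be made, so no p-value is given. Intervals are 95% intervals that cover only counting error or, for medians over peaks, spread over peaks.

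Sequence was at hand only for promoter windows, and most members lay away from these. RefSeq promoter windows (assembly GRCm38.p6, 250 bases before to 50 bases after a start site) lay under 16 of the 989 members (1.62%, interval 0.998 to 2.61%), in 17 windows, against 8.76% of all D0 peaks. The 250 bases before the start site are given for 5 of these genes, 5' to 3' on the strand of the gene, as examples of windows with and without a motif match, chosen after their values and letters had been seen. Of the 17 windows 8 held a match, and of the 2 windows of Gramd2 the one with a match is given. They are the chemokine receptor Xcr1 of the selection itself (chr9:123862030-123862279, minus strand), the chemoattractant receptor Gpr33 (chr12:52028064-52028313, minus strand), the orphan receptor Gpr141b (chr13:19732952-19733201, minus strand), the interferon-inducible Ifi205 (chr1:174031756-174032005, minus strand) and the GRAM domain gene Gramd2 (chr9:59707514-59707763, plus strand). Capitals mark the motif matches that are described next.
Xcr1: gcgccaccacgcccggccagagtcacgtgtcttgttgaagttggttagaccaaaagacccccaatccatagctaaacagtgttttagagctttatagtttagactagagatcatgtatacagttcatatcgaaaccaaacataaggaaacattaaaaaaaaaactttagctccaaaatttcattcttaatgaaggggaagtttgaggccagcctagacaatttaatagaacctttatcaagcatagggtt
Gpr33: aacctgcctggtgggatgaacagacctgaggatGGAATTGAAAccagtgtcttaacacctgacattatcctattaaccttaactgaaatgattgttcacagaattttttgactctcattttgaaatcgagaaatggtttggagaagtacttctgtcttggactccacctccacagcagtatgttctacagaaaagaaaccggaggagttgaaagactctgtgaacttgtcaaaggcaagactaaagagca
Gpr141b: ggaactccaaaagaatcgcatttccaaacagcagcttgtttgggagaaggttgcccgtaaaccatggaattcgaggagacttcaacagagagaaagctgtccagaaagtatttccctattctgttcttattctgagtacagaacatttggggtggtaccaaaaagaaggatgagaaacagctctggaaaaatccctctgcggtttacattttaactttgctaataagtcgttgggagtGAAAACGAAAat
Ifi205: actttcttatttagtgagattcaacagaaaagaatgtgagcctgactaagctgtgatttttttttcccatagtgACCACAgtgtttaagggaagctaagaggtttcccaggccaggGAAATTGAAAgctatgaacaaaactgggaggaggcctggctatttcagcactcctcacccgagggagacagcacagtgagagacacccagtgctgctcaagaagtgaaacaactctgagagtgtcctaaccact
Gramd2: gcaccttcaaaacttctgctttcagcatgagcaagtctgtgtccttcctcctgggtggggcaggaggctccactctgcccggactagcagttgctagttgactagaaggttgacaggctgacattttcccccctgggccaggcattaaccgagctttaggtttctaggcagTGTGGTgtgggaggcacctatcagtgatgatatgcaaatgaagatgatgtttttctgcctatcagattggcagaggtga

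Both strands of these 250 bases were searched for 7 motifs. The ETS-IRF composite GGAANNGAAA, to which PU.1 and IRF8 or IRF4 bind together, was in the Gpr33 window and in 2 of the 17 windows in all, against 2.30% of 32817 windows of the whole table. The interferon response motif GAAANNGAAA was in the windows of Gpr141b and Ifi205, 2 of 17, against 2.97%. The RUNX motif TGTGGT was in the windows of Ifi205 and Gramd2 and in 4 of 17 in all, against 14.0%. The AP-1 motif TGANTCA and the E-box CAGCTG were each in 1 of 17, against 6.75% and 13.0%. The PU.1 motif GAGGAAGT (2.44% of all windows) and the NFIL3 motif TTACGTAA (0.113%) were in 0 of 17. With 17 windows each match is a description of letters.

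After a minimum of 1000 UMIs, A held 3562 nuclei at D0 and 4375 at D5, and B held 7268 and 16393. A nucleus of A was deeper than a nucleus of B, with a median of 3802.5 against 1630 UMIs at D0 and of 4227 against 2594 at D5. Depth per group ranged from 54908489 to 123495093 cut sites. The 7 further cDC1 genes checked (Cadm1, Itgae, Wdfy4, Naaa, Gcsam, Batf3 and Irf8) were all higher in A at both days. Summed, they reached 3887 CPM of UMIs in A against 1487 in B at D0, and 3657 against 924 at D5. Group A was not pure by its RNA. At D0, 42.2% of its nuclei held 2 or more UMIs of the pDC (plasmacytoid dendritic cell) markers, 36.1% of the cDC2 markers, 33.4% of the NK and T cell markers and 10.9% of the markers of Ccr7+ dendritic cells. In B these shares were 28.2%, 35.5%, 24.1% and 8.02%. At D5 the shares in A were 21.6%, 37.7%, 10.0% and 13.2%, and in B 13.8%, 56.9%, 11.4% and 14.6%. These shares are not scaled for depth. Per UMI, all of these marker lists were lower in A than in B at both days. At D0 the pDC markers had 586 CPM in A against 807 CPM in B, and the NK and T cell markers 357 against 545 CPM. Doublets and free RNA both give such UMIs, no doublet caller was run, and their part in the results was not tested beyond leaving such nuclei out. The libraries shared 591 barcodes among called nuclei.

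At D0, where the choice was made, members had a median of 5.04 CPM in A and 0.787 CPM in B, and the highest ratio of A to B plus 0.5 was 9.78. Levels in A ran from 1.59 to 25.01 CPM, so members were not the tallest peaks of these nuclei, the tallest of which reached 539.8 CPM. Every log2 ratio of peaks was computed after 0.5 had been added to both CPM values. The fold printed for a single peak or gene was CPM in A over CPM in B with nothing added. Folds and log2 ratios can therefore rank peaks differently, and counts at 2-fold or more use the log2 ratio.

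The D5 library was not used to choose the members. Of the 989 members, 970 (98.1%, interval 97.0 to 98.8%) overlapped a peak called at D5, against 89.2% of all D0 peaks, and these were 970 different D5 peaks. In the D5 library the median level was 5.34 CPM in A and 0.619 CPM in B. A was above B in 970 of 970, against a background of 51.2% of all D0 peaks with a D5 peak. The counting interval of the ratio lay above 1 in all 970, against 23.7%. The median log2 ratio was 2.23 (interval 2.19 to 2.27), the quartiles were 1.95 and 2.56, and the range was 0.84 to 3.94. Over the 127416 D0 peaks with a D5 peak the median was 0.010. A ratio of 2-fold or more (log2 of 1 or more) was found for 967 of 970 members, against a background of 6.31%. The whole selection rule, applied to D5, was met by 823 of 970 (84.8%, interval 82.5 to 87.0%), against 1.29% of all peaks with a D5 peak. Nuclei with a marker sum of 1 or 2 belonged to neither group. In the 5865 such nuclei at D5, 970 of 970 members were above B of that day, against 56.5% of all peaks, with a median log2 ratio of 0.98 (interval 0.95 to 1.01) against 0.038.

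**Figure D1:**
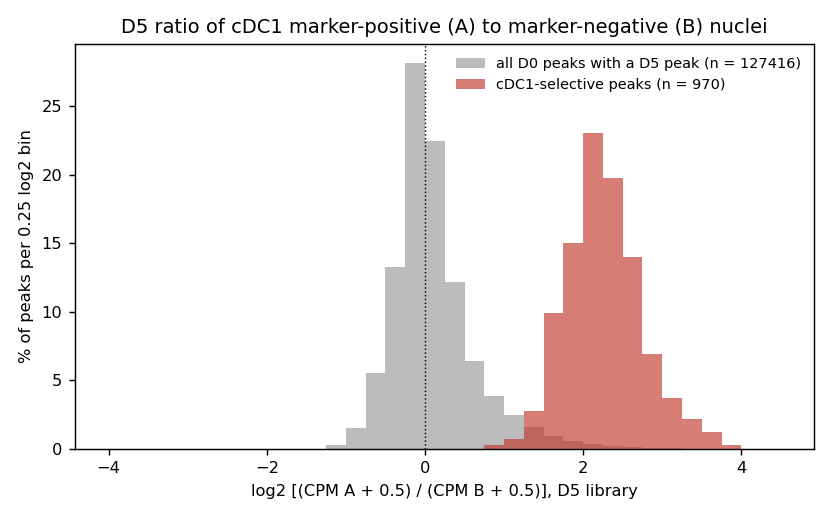
Share of peaks (vertical axis, % per bin of 0.25) by the log2 ratio of group A to group B in the D5 library (horizontal axis) for the 970 cDC1-selective peaks with a D5 peak (red) and for all 127416 D0 peaks with a D5 peak (grey). All 970 members lie to the right of 0, while the grey distribution is centred at 0.

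The 147 members that missed the rule at D5 had a median ratio of A to B plus 0.5 of 2.62, the lowest being 1.55, and 3 of them held under 60 cut sites in A. The 19 members with no D5 peak had a median of 261 cut sites in A at D0 (147 to 778), against 470.5 in members with a D5 peak, and 1 of the 19 lay above that median. Taken the other way, the rule picked 1656 peaks from the D5 library, of which 824 (49.8%) lay over a member and 15 over no D0 peak. Of the other 817, 688 had a D0 ratio between 2 and 3, and 0 had a ratio below 1.

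Removing from A every nucleus with 2 or more UMIs of another marker list left 1248 D0 nuclei and 1993 D5 nuclei. For the same members, the ratio of the remaining nuclei to B had a D5 median of 2.84 on the log2 scale, with 970 of 970 at 2-fold or more, against -0.03 over all peaks. The share of all cut sites that fell in members was 0.624% in A at D5 and 0.976% in A without such nuclei, against 0.0894% in B. The share in members was larger in the nuclei of A that lacked markers of other cells than in A as a whole. With this stricter A at D0 the rule took 3930 peaks, among them 947 of the 989.

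The share also followed the marker sum at D5. Pooled over nuclei, it was 0.0894% at a sum of 0, 0.172% at 1, 0.351% at 2 and 0.547% at 3 to 4. It was 0.673% at 5 to 9 and 0.687% at 10 or more, and so rose at each step. The median over nuclei fell at the last step, from 0.782% at 5 to 9 to 0.764% at 10 or more. At D0 the pooled shares were 0.0977%, 0.185%, 0.403%, 0.561%, 0.604% and 0.541%. There a sum of 0 is group B and a sum of 3 or more is group A, so both ends of the D0 values were set by the choice of the members. RNA depth rose along the same axis, from a median of 1630 UMIs at a sum of 0 to 8995 UMIs at 10 or more at D0, and its part in the trend was not tested.

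**Figure D2:**
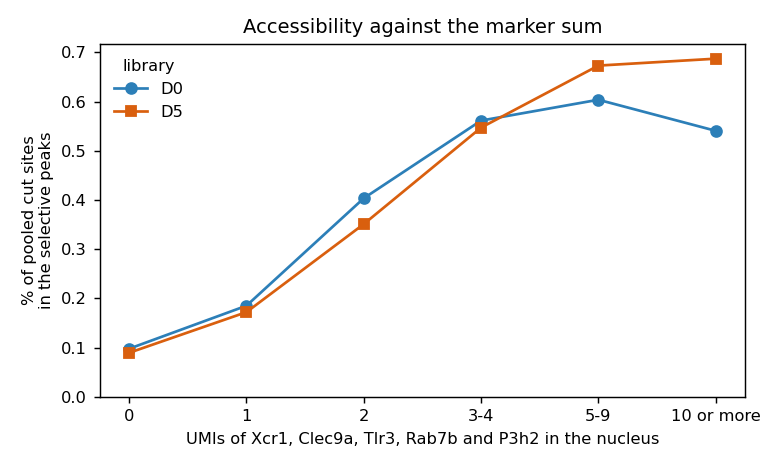
Share of all cut sites that lay in the 989 members (vertical axis, %, pooled over nuclei) by the number of UMIs of the 5 selection markers in the nucleus (horizontal axis), for D0 (blue) and D5 (orange). D5 members are their overlapping D5 peaks, and the D5 share climbs from 0.0894% to 0.687%. The low and high ends at D0 are groups B and A of that day, which chose the members.

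Members were also compared with other named cells of the same sort. Within B, classes were formed from 3 or more UMIs of their own 5 markers and at most 1 UMI of every other list. At D5 these were 4967 cDC2, 771 Ccr7+ dendritic cells (the activated, migratory state), 729 pDC, 783 NK and T cells and 127 macrophages. A held the highest level for 936 of 970 members (96.5%), against 14.5% of all peaks. The macrophage class held only 712353 cut sites, so that 1 cut site there was worth 1.40 CPM. Without it, A was highest for 958 of 970 (98.8%), against 18.9% of all peaks. Being highest is a weaker demand than the rule: with the highest other class in place of B at D0, the rule took 234 peaks, among them 203 of the 989 members, and without the macrophage class 278 peaks and 244 members. No member was as high as A in pDC, cDC2 or NK and T cells. The median log2 ratio of A over the class was 1.80 for Ccr7+ dendritic cells, 2.32 for cDC2, 2.64 for pDC and 2.95 for NK and T cells.

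Ccr7+ dendritic cells came closest. Without the macrophage class they were the highest other class for 642 of 970 members (66.2%), against 24.9% of all peaks, and in 12 members their level equalled or exceeded that of A. The tallest of these 12, 13581 bp from the start site of Gm47439, had 15.3 CPM in Ccr7+ dendritic cells, 12.8 CPM in A and 3.46 CPM in B at D5. The median share of a nucleus's cut sites in members was 0.102% in Ccr7+ dendritic cells, 0.0735% in cDC2, 0.0471% in pDC and 0.0193% in NK and T cells at D5, against 0.725% in A. A tail of Ccr7+ nuclei went far above their median. At D5, 90 of 657 nuclei with 2000 or more cut sites (13.7%, interval 11.3 to 16.5%) reached 0.245%, the 10th percentile of A, although their cDC1 marker sum was 0. The same limit was reached by 1.53% of cDC2, 0.965% of pDC and 0.773% of NK and T cells, whose median depths were alike (7059 to 8172 cut sites, and 7316 in Ccr7+ nuclei). At D0, where A and B had chosen the members, 38 of 209 Ccr7+ nuclei (18.2%, interval 13.5 to 24.0%) reached the limit of that day, 0.271%.

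**Figure D3:**
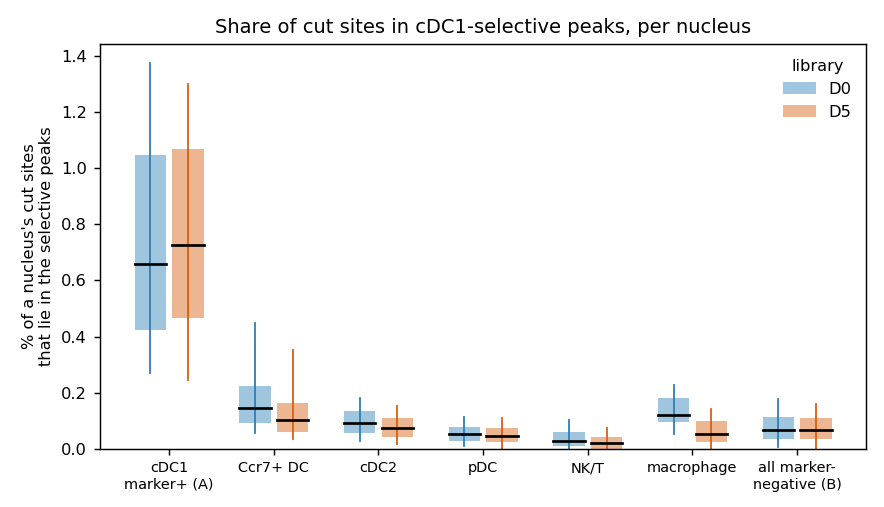
Share of a nucleus's cut sites that lay in members (vertical axis, %), for nuclei with 2000 or more cut sites of group A, 5 marker classes and group B, at D0 (blue) and D5 (orange). Black lines are medians, boxes run from the 25th to the 75th percentile and thin lines from the 10th to the 90th, and the upper line of Ccr7+ dendritic cells (0.447% at D0 and 0.352% at D5) is above that of the other classes outside A.

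Genes of dendritic cells were taken from 6 lists, and 17 members lay nearest to a gene of the first 4. Of 14 cDC1 receptor genes 5 had a member, as did 4 of 11 antigen handling genes, 1 of 8 cytokine genes and 1 of 16 transcription factor genes. Members made up 2.84% of the 176 peaks nearest to the receptor genes and 10.6% of the 94 of the antigen handling genes, against 0.693% of all peaks. These lists hold the 5 selection markers, and without them the shares were 3 of 160 (1.88%) and 8 of 68 (11.8%). The receptor share without markers thus rests on 3 peaks and is close to that of the pDC genes (2 of 100). The antigen handling list also holds Gcsam and P3h2, whose known roles are others and which had 5 of its 10 members. Its other 9 genes had 5 of 72 peaks (6.94%). For cytokine genes the share was 1 of 81 (1.23%) and for transcription factor genes 1 of 261 (0.383%), which is near that background. Of the 101 peaks nearest to 10 cDC2 genes 0 were members, a count that is also near the background. Of 100 peaks nearest to 10 pDC genes 2 were members. They were a peak over the start site of the homing receptor gene Ccr9, with 3.13 CPM in A, 0.721 CPM in B and 0.190 CPM in pDC at D5, and a peak 424261 bp from Siglech that had no D5 peak.

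Xcr1 and Tlr3, which are markers of the selection, had the lowest D5 folds of the 5 receptor members, and Cd36 the highest. The peak over the start site of Xcr1 (chr9:123861603-123862382), the receptor for the chemokine that activated T and NK cells release, had 5.66 CPM in A and 1.04 CPM in B at D5, 5.42-fold (interval 4.07 to 7.45). A peak 140 bp upstream of Tlr3, the sensor of double-stranded RNA, had 10.6 against 1.86 CPM, 5.67-fold (4.55 to 7.10). Beside Cadm1, the adhesion molecule used to sort cDC1, a peak 120888 bp from the start site and inside the gene had 12.1 against 2.00 CPM, 6.05-fold (4.89 to 7.46). The peak over Gpr33, whose sequence is given above, had 7.05 against 1.02 CPM, 6.91-fold (5.19 to 9.36). The peak over the start site of Cd36, a scavenger receptor, had a B level of 0.235 CPM, against 4.01 CPM in A, 17.1-fold (10.1 to 33.4). In all 5 the counting interval of the ratio lay above 1.

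The 10 members of the antigen handling list lay nearest to 4 of its 11 genes. Ppt1, a lysosomal thioesterase, had members at 2395, 23990 and 24540 bp upstream with 10.6, 5.10 and 14.0 CPM in A and 1.28, 0.721 and 1.38 CPM in B at D5. Gcsam, a signalling adaptor named for germinal centres, had members at 3538, 5312 and 17746 bp downstream with 5.90, 9.32 and 5.35 CPM in A, and the most distant of these was almost as high in Ccr7+ dendritic cells (4.52 CPM). At D0 this most distant peak had 8.04 CPM in Ccr7+ dendritic cells and 5.55 CPM in A. Wdfy4, which cross-presentation needs, had members at 21529 and 23169 bp downstream with 10.8 and 6.36 CPM in A against 1.78 and 1.52 CPM in B. P3h2, a collagen-modifying enzyme and marker of the selection, had a member over its start site with 10.7 against 1.30 CPM, and another at 46873 bp that had no D5 peak. Inside the P3h2 gene, 5 of 23 peaks were members, among them the 4 members nearest to the start site of AU015336. Of these 4, 1 had 10.7 CPM in A and 0.332 CPM in B, 32.1-fold (20.9 to 54.7).

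The cytokine member lay 14531 bp downstream of Il12b, which encodes the p40 subunit of interleukin-12, the cytokine that drives type 1 T cell responses. It had 7.69 CPM in A, 1.54 CPM in B and 4.92 CPM in Ccr7+ dendritic cells at D5. The transcription factor member lay 31203 bp upstream of Etv6, a repressor of the ETS family, with 2.91 against 0.607 CPM, and it did not meet the rule at D5. The other 15 transcription factor genes had none. For these the peak with the highest D0 ratio was looked up. It was 2.81 for Zbtb46, 2.40 for Batf3 and 2.39 for Irf8. The Irf8 peak lay 29672 bp downstream with 19.97 CPM in A and 7.84 CPM in B at D0, and 24.4 and 6.86 CPM at D5, so that it was taller in A than each of the 16 listed members with a D5 peak. Id2 (1.15) and Nfil3 (1.06), which are needed for cDC1 development, had no peak with a ratio of 2, although Id2 RNA was 1577 CPM in A against 760.4 CPM in B at D5. Clec9a, the receptor for dead cells among the selection markers, missed the rule with a ratio of 2.47 over its start site, and Rab7b with 1.82.

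**Figure D4:**
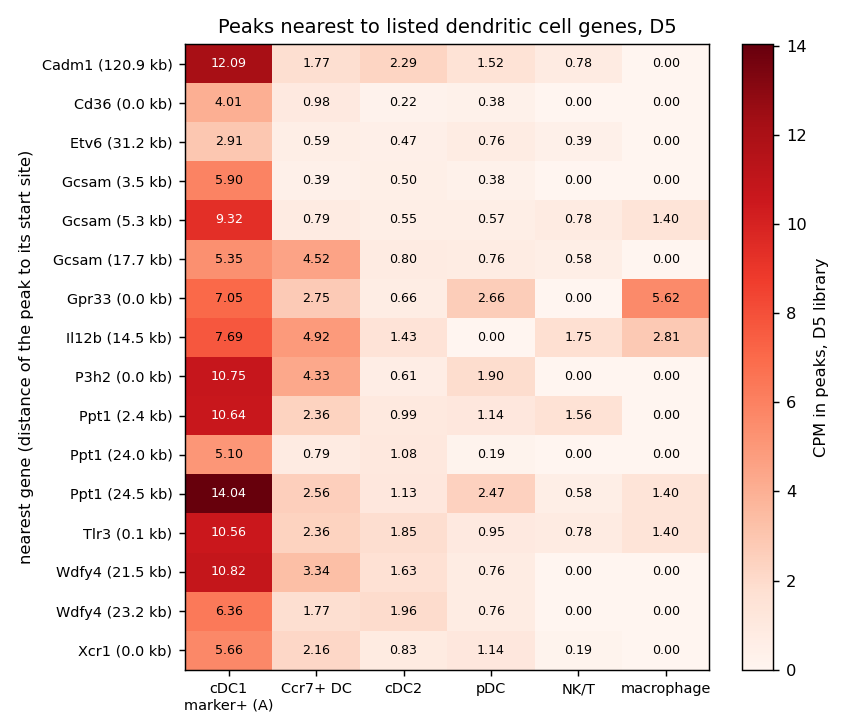
CPM at D5 in group A and in the 5 other marker classes (columns, colour and printed number) for the 16 members with a D5 peak nearest to listed dendritic cell genes (rows, with the distance to the start site in kb). Column A is the highest in all 16 rows, and the Gcsam peak at 17.7 kb, the Il12b peak and the P3h2 peak have the highest levels in Ccr7+ dendritic cells; single cut sites make steps of 1.40 CPM in the macrophage column.

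The members with the highest D0 ratios were led by genes outside these lists. The first (ratio 9.78, chr15:96006741-96007648) lay 12611 bp from the start site of Gm49172 and had 17.5 CPM in A and 0.672 CPM in B at D5, 26.0-fold (18.7 to 36.1). Then came peaks nearest to Klra6 (9.09), Gm48754 inside Rala (8.92), Plce1 (8.87), AU015336 inside P3h2 (8.44), Gm3513 inside Fnip2 (8.33), Gng2 (8.15), Tbc1d8 (7.94), Mgst2 inside Maml3 (7.92) and Gm49180 (7.89). The tallest of the 10 at D5 was that of Tbc1d8, with 26.9 CPM in A, 1.60 CPM in B and 7.08 CPM in Ccr7+ dendritic cells. All 10 met the rule at D5, with folds between 16.9 and 36.2. Klra6 belongs to a family of near-identical receptor genes, where reads can be split between copies.

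Members lay nearest to 795 genes, of which 662 had 1 member, 95 had 2, 26 had 3, 6 had 4 and 6 had 5 or more. Counts per nearest gene and per run were not made for other peaks, so clustering of members was not tested. With gaps of at most 10000 bp, 180 members joined into 82 runs of 2 or more, and 3 runs held 4 or more. The longest was a run of 5 within 5558 bp (chr19:38593178-38598735) inside Plce1, a phospholipase C gene. The 7 members inside the Plce1 gene were 7 of its 17 peaks. Gm29040 had the most members, 9, with D5 levels in A from 2.73 to 21.8 CPM, and 8 met the rule at D5. The tallest of the 9 had 13.2 CPM in Ccr7+ dendritic cells at D5. At D0 that peak was higher in Ccr7+ dendritic cells (21.6 CPM) than in A (17.9 CPM). Fzd1, a WNT receptor gene, had 5, from its start site to 174293 bp away. The member over the Fzd1 start site had 14.3 CPM in A and 1.08 CPM in B at D5, 13.2-fold (10.3 to 17.6). Dkk3, a secreted WNT pathway modulator, and Tafa2 also had 5 each. Gpr141b, AU015336 (all inside the selection marker P3h2), Gm49172, Gm48503, Col25a1 and Gm47733 had 4 each. The X chromosome held 6 members of 3530 peaks (0.170%), chromosome 1 held 97 of 10052 (0.965%) and chromosome 12 held 61 of 6132 (0.995%), against 0.693% of all peaks.

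Members lay farther from start sites than other peaks. The median distance to the nearest start site was 19002 bp, against 11409 bp over all D0 peaks. Within 1000 bp of a start site lay 113 of 989 (11.4%, interval 9.59 to 13.6%), against 22.5% of all peaks, and over 100 kb away lay 10.2% against 5.43%. A start site lay under 88 members (8.90%), against 19.2%. The share inside a RefSeq gene body was close in both, 63.9% (interval 60.9 to 66.8%) against 64.3%, and the median widths were 887 and 873 bp.

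**Figure D5:**
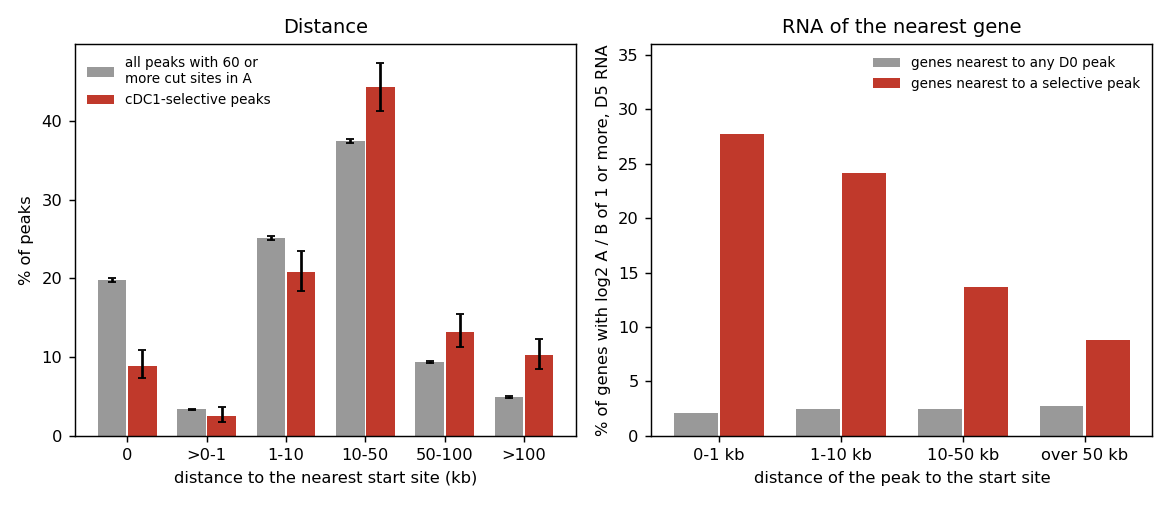
Left, share of peaks (vertical axis, %) by distance to the nearest start site (horizontal axis, kb, 0 meaning that the peak covers it) for members (red) and all peaks with 60 or more cut sites in A (grey), with 95% Wilson intervals. Right, share of nearest genes (vertical axis, %) whose D5 RNA was 2-fold or more higher in A, by the distance of the peak to the start site; it falls from 27.7% within 1 kb to 8.82% beyond 50 kb for members, and lies between 2.08% and 2.75% for genes nearest to any peak.

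RNA of the nearest genes was read in the D5 library. Of 795 nearest genes, 482 had 30 or more UMIs in A and B together after the 5 selection markers had been left out. Their median log2 ratio of A to B, after 1 had been added to both CPM values, was 0.21 (interval 0.18 to 0.26), against 0.02 over all 14470 such genes. A ratio of 2-fold or more higher in A was reached by 67 (13.9%), against a background of 1.95%, and 2-fold or more lower in A by 2 (0.415%), against 1.01%. So 413 of the 482 nearest genes differed by less than 2-fold in either direction, against 14042 of all 14470 such genes, which is a larger share. AU015336, whose 4 members lie inside the selection marker P3h2, was kept and is among the 67 (log2 of 1.29). It had 33 UMIs in A and 0 in B, so it reached the minimum through A alone and its ratio is a description. The share at 2-fold or more was 27.7% (18 of 65) within 1 kb, 24.1% (27 of 112) at 1 to 10 kb, 13.6% (33 of 242) at 10 to 50 kb and 8.82% (9 of 102) beyond. A gene with members at several distances was counted in each of these ranges. By number of members it was 10.1% for genes with 1, 29.4% with 2 and 45.8% (11 of 24) with 3 or more. Of the 38 genes with 3 or more members these 24 had reached the UMI minimum, and AU015336 is among the 11.

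Genes with a member within 1 kb and large RNA ratios had varied roles. Ccser1 had 204.3 CPM in A and 26.9 CPM in B at D5, 7.60-fold. Ifi205 had 175.6 against 25.7 CPM, 6.83-fold, and the peak at its start site was 3.80-fold (3.12 to 4.65) higher in A. Ifi205 has near-identical neighbours, so its reads are uncertain. Gramd2 was low but 15.8-fold (11.3 to 22.5) higher, with 12.9 against 0.815 CPM, and its peak was 11.6-fold (9.60 to 14.1) higher. Gpr33 had 9.56 against 0.407 CPM, Fzd1 13.3 against 1.47 CPM, Cd36 124.9 against 23.5 CPM, and Met, the receptor for hepatocyte growth factor, 35.3 against 5.54 CPM. Other genes near members were close to equal in both groups. Etv6 RNA was 1013 CPM in A and 1042 CPM in B, and that of Wnk1, a kinase of ion transport, was 842.6 against 717.5 CPM. Plce1, with 6 members at 68968 bp or more, had 27.9 CPM in A and 0.876 CPM in B, while Tafa2, with 5, had 5 UMIs in all.

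Levels of members in A were also set side by side for D0 and D5, each scaled over the peaks of its own library. The median log2 ratio of D5 to D0 was 0.087 (quartiles -0.13 and 0.27), against -0.084 over all peaks. The sign of this median turned under 3 settings, with -0.015, -0.15 and -0.079. The counting interval lay above 0 in 259 of 970 members (26.7%), against 14.3% of all peaks, and below 0 in 110 (11.3%), against 24.6%. A fall of 2-fold or more (log2 of -1 or less) was found in 6 of 970 (0.619%), against a background of 2.31%, and a rise of 2-fold or more in 0, against 0.0824%. The D0 level had chosen the members, which favours lower values at D5. So the shares of members and of all peaks in this paragraph are a description, and no conclusion is drawn from their difference. The 6 were nearest to Trak2, Gatb, A930031H19Rik, Galnt1, 2700062C07Rik and Rbl2, and were named after their values had been seen. The D0 peak of 2700062C07Rik (566 bp) shared only 31 bp with its D5 peak, so its values at both days are of largely different regions, and 5 falls of 2-fold remain without it. It was the single member with less than 50% of its length in its D5 peak, and it had the lowest D5 log2 ratio, 0.84. Next were AA672651 (0.97), Stard13 (0.98), Gm38143 (1.13) and Hivep2 (1.15). At Stard13 the level in A was kept, 5.54 CPM at D0 and 6.16 CPM at D5, while B went from 1.03 to 2.87 CPM. At the other end were Gm49172 (3.94), Elac2 (3.88), Ppp3r2 inside Grin3a (3.77), AU015336 (3.75) and Sorbs2 (3.72). The Elac2 peak had 19.6 CPM in A, 0.866 CPM in B and 0.983 CPM in Ccr7+ dendritic cells at D5.

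The 3 members just inside the 3-fold limit were nearest to Ighg2c, 2310081O03Rik and F930017D23Rik, with D5 log2 ratios of 2.31, 1.71 and 2.22. The 3 peaks just outside were nearest to Zfp568, Tmcc3 and 4930519G04Rik (2.99 to 3.00), with D5 log2 ratios of 1.60, 1.05 and 1.59.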

How the data were processed

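The authors deposited raw counts for each library, per the labels and file headers. RNA matrices of UMI counts per gene in called barcodes came from Cell Ranger 6.0.2, and joint matrices of gene UMI counts and cut site counts per peak from Cell Ranger ARC 2.0.2, with peaks called separately in each library on build mm10, which the submitters' processing notes name. The D5 joint matrix was joined to called barcodes by identical gene counts (27873 of 27873 matched, and 16260 of 16260 at D0). Nothing was normalised before deposit.

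Barcodes with 1000 or more UMIs were kept, 14282 at D0 and 26633 at D5, and no doublet caller was run. Cut sites were summed per group of nuclei and scaled to CPM over all peaks. A D0 peak was matched to the D5 peak with the largest overlap of at least 1 bp. Start sites were the intervals of the deposited gene table, and gene bodies and promoter windows came from RefSeq GRCm38.p6, the same assembly as mm10. A value of 2, both ends of 1 fragment, made up 70.4% (D0) and 75.1% (D5) of the nonzero peak values, so cut sites were divided by 2 for exact intervals of ratios. Shares have Wilson intervals and medians order-statistic intervals, with 95% confidence, which cover counting error or spread over peaks only. The selection code was also run on simulated counts. These held no spread between nuclei, so that run says nothing about the members. Python 3.11.15, numpy 2.4.6, scipy 1.17.1 and pandas 2.3.3 were used.

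The members, marker lists and gene lists were chosen with earlier results of these data known. Peaks were named when nearest to a gene of the first 4 lists, among the 10 highest D0 ratios, nearest to the genes with the most members (12 by ties), among the 5 lowest or highest D5 ratios, or the 3 nearest to the limit on either side, with at most 3 per gene. Other named genes were chosen after their values were seen. Some genes near members are not reported here. Alternatives changed the marker sum, UMI minimum, cut site minimum, fold, added CPM, scaling, comparison group, overlap rule, class rule and start sites.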

Additional observations from a re-analysis of the deposited data

How the results depend on the processing

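The set of members depended on the settings more than its direction did. As reported there were 989 members, 970 with a D5 peak and 823 meeting the rule at D5. The median log2 values were 2.23 (A over B at D5), 1.45 (A over the highest other class), 1.06 (marker sum 1 or 2 over B, both at D0, where a low B was part of the rule), 0.087 (D5 over D0) and 0.21 (RNA), and the median distance was 19002 bp. Values that moved beyond the interval of the median, or counts beyond 1.5 times, follow in the same terms, and the cause was not tested except where the setting itself takes more or fewer peaks. With a marker sum of 2 or more for A the values were log2 of 2.12 (A over B at D5), 1.36 (over the highest class), 0.68 (marker sum 1 or 2 over B), -0.015 (D5 over D0). With 5 or more the values were log2 of 2.33 (A over B at D5), 1.57 (over the highest class), 1.42 (marker sum 1 or 2 over B), 0.19 (D5 over D0). With 500 or more UMIs the values were log2 of 1.04 (marker sum 1 or 2 over B). With 2000 or more UMIs the values were log2 of 2.29 (A over B at D5), 1.13 (marker sum 1 or 2 over B), 0.13 (D5 over D0). With A cleared of nuclei holding other markers the values were 3930 members, 3842 with a D5 peak, 2602 meeting the rule at D5, log2 of 2.06 (A over B at D5), 1.27 (over the highest class), 0.69 (marker sum 1 or 2 over B), -0.15 (D5 over D0), 0.12 (RNA), 16063 bp, with 947 of the 989 kept. At a 2-fold limit the values were 3769 members, 3601 with a D5 peak, 3073 meeting the rule at D5, log2 of 1.67 (A over B at D5), 0.93 (over the highest class), 0.77 (marker sum 1 or 2 over B), 0.15 (RNA), with 989 of the 989 kept. At 5-fold the values were 108 members, 106 with a D5 peak, 98 meeting the rule at D5, log2 of 3.01 (A over B at D5), 2.10 (over the highest class), 1.56 (marker sum 1 or 2 over B), 0.18 (D5 over D0), 0.37 (RNA), 13767 bp. With 0.1 CPM added the values were 3684 members, 3146 with a D5 peak, 2584 meeting the rule at D5, log2 of 2.28 (A over B at D5), 1.29 (over the highest class), 1.12 (marker sum 1 or 2 over B), 0.042 (D5 over D0), 0.14 (RNA), 22412 bp, with 989 of the 989 kept. With 1 CPM added the values were 279 members, 279 with a D5 peak, 255 meeting the rule at D5, log2 of 2.29 (A over B at D5), 1.59 (over the highest class), 0.16 (D5 over D0), 0.31 (RNA), 15209 bp. With each nonzero entry counted as 1 the values were 1625 members, 1561 with a D5 peak, log2 of 2.09 (A over B at D5), 1.34 (over the highest class), 0.98 (marker sum 1 or 2 over B), -0.079 (D5 over D0), with 989 of the 989 kept. Scaled by peaks within 1000 bp of start sites the values were 2094 members, 1957 with a D5 peak, 1662 meeting the rule at D5, log2 of 1.37 (over the highest class), 1.09 (marker sum 1 or 2 over B), 0.17 (RNA), with 989 of the 989 kept. Against the highest other class in place of B the values were 234 members, 225 with a D5 peak, 110 meeting the rule at D5, log2 of 2.43 (A over B at D5), 1.71 (over the highest class), 1.17 (marker sum 1 or 2 over B), with 203 of the 989 kept. With no limit on the other lists the values were log2 of 1.77 (over the highest class). With start sites of genes with 30 or more UMIs the values were log2 of 0.17 (RNA), 32944 bp. Against the highest other class without macrophages (added after seeing the data) the values were 278 members, 269 with a D5 peak, 153 meeting the rule at D5, log2 of 2.43 (A over B at D5), 1.85 (over the highest class), 1.15 (marker sum 1 or 2 over B), with 244 of the 989 kept. With macrophages left out of the classes (also added later) the values were log2 of 1.63 (over the highest class). The sign turned for D5 over D0 at a marker sum of 2 or more, after clearing A and with entries counted as 1, so that value has no stable direction. Minimums of 30 or 120 cut sites changed no member. They could not, since the fold limit with 0.5 CPM added already asks for more cut sites in A at D0. For single named peaks, the D5 ratio turned in 0 of 980 refits and moved by 0.5 or more (log2) in 107. No paired analysis was possible because each day is 1 library. The alternative on motif shares of peaks was not run, since no genome was used here. Depth limits the macrophage class most at both days. At D0 Ccr7+ dendritic cells come next (1989963 cut sites), and at D5 they were about as deep (5085841) as NK and T cells (5138613) and pDC (5270400).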
